A study of Homo sapiens with 9 samples.

Results

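The endothelin and oxytocin receptor genes examined here were EDN1, EDNRA, EDNRB, ECE1, ECE2 and OXTR, 6 of the 58299 genes in the deposited count table. They were chosen by name, with EDN1 and OXTR named for being low after 24 h of treatment in these same libraries. AC16 is a human line made by fusing adult ventricular heart muscle cells with fibroblasts transformed by SV40, and every library came from it. One group of 3 libraries received the vehicle alone, 0.1% DMSO, over 72 h. The other groups, of 3 libraries each, received 100 nM CDDO-Me over 24 h or over 72 h. CDDO-Me (bardoxolone methyl) is a triterpenoid that binds KEAP1 and so frees the transcription factor NRF2. The series title names protection from doxorubicin as the setting, and no library received that drug. The vehicle libraries analysed here are all of 72 h, so in any comparison that uses the 24 h group the treatment and the culture time cannot be told apart. Since nothing in the labels tells if the replicates came from separate cultures, the spread that each p-value is based on may be technical.

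EDN1 encodes the precursor of endothelin 1, a short peptide and one of the most potent constrictors of blood vessels known. Furin-type proteases cut the precursor to big endothelin, and the membrane proteases ECE1 and ECE2 cut that to the active peptide. The receptors EDNRA and EDNRB, like the oxytocin receptor OXTR, couple mainly to Gq proteins, phospholipase C and calcium release. In the heart, endothelin 1 is known as a signal that raises contraction and drives growth of muscle cells, while OXTR is best known from uterus and brain. The EDN1 promoter is short and well studied, with sites for AP-1, GATA and hypoxia-inducible factors close to the start of transcription.

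The sequences before the starts of EDN1 and OXTR are shown because these genes were low after treatment and the EDN1 window holds short motifs that were not found in the OXTR window. Both are RefSeq sequences of GRCh38.p14, written 5′ to 3′ in the direction of transcription. For EDN1 the window is chr6:12290111-12290360 on the plus strand, the 250 bases before the RefSeq start, which lies 2 bases from the start in the deposited table. For OXTR it is chr3:8769629-8769863 on the minus strand, the 235 bases before the start in the deposited table. Capitals mark every match to the motifs that were searched, and the OXTR window has none.
EDN1: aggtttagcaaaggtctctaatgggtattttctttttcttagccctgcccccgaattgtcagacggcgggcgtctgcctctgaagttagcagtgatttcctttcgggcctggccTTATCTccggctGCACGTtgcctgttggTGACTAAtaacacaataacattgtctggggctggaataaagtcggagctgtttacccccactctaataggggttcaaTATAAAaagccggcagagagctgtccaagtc
OXTR: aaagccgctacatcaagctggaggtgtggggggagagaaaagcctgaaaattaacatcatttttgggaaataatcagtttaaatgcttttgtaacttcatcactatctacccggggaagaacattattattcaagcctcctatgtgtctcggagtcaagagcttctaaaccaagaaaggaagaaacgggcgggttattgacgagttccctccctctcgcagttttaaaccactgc

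In the EDN1 window the capitals are, in order, TTATCT (the GATA motif AGATAA read on the other strand, bases 136 to 131 before the start), GCACGT (the hypoxia response motif ACGTGC on the other strand, 124 to 119), TGACTAA (a variant of the AP-1 motif, 108 to 102) and TATAAA (the TATA box, 31 to 26). None of these overlapped another. The search covered both strands for 7 motifs, the others being TGANTCA (AP-1 consensus), TGACNNNGC (antioxidant response core, the element NRF2 binds) and TGACGTCA (cAMP response). Of 35116 RefSeq windows of the same length, 9.17% held AGATAA, 5.83% ACGTGC, 1.62% TGACTAA, 10.7% TATAAA, 6.57% TGANTCA, 10.9% TGACNNNGC and 1.65% TGACGTCA. In windows cut to the length of OXTR's the shares ran from 1.50 to 10.5%. The ECE1 window of 250 bases also held none of the 7 motifs, and 76.8% of its bases were G or C, against 49.2% for EDN1 and 43.4% for OXTR. These matches describe letters in a window and not binding. The EDN1 promoter was already known for AP-1, GATA and hypoxia sites, so its matches to such motifs are no new result. For the same reason the contrast with the OXTR and ECE1 windows is not a test.

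Library totals were 19382833 to 20570568 counts in DMSO, 16898977 to 27910031 at 24 h and 18801683 to 20704953 at 72 h. In the fit of 14965 tested genes, CDDO-Me 24 h replicate 3 lay at a root mean square log2 difference of 0.343 and 0.365 from the other 24 h libraries, which differed from each other by 0.157. It lay at 0.253 to 0.262 from the 72 h libraries. DMSO replicate 1 lay at 0.243 and 0.265 from the other DMSO libraries, against 0.177 between these. Of 5 NRF2 targets used as a check of the treatment labels, NQO1 was higher than in DMSO at 24 h and at 72 h (449.2, 1879.1 and 3348.5 CPM). HMOX1, GCLM and TXNRD1 passed at 72 h (edgeR adjusted p 0.0106, 0.0139 and 0.0319) and not at 24 h (0.0557, 0.0667 and 0.0981), and SRXN1 passed at neither time (0.143 at 24 h and 0.0564 at 72 h). At 24 h HMOX1, GCLM, TXNRD1 and SRXN1 stood at 13.1-, 2.88-, 2.88- and 3.31-fold their DMSO levels. Each of these passed at 24 h when 24 h replicate 3 was left out. The 72 h calls of GCLM and TXNRD1 ended in 4 and 6 of 9 fits with 1 library left out. Of 15 heart muscle markers, 10 had at most 3 counts in every library, among them MYH6, MYH7, TNNI3, RYR2 and NKX2-5, while GATA4 and TTN had enough counts to be tested. The fibroblast markers summed to 17923 to 26505 CPM over all 9 libraries. CPM is the count over the library total, with each total first adjusted by a trimmed mean factor that evens out differences in RNA composition.

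EDN1 (ENSG00000078401, GRCh38 chr6:12290363-12297194, plus strand, 2033 exon bases), the ligand gene, was lowest at 24 h and stood between the 24 h and DMSO levels at 72 h. The DMSO replicates 1, 2 and 3 held 459, 837 and 1040 counts, the 24 h replicates 79, 112 and 143, and the 72 h replicates 400, 354 and 389. As CPM these were 23.7, 43.6 and 50.3 in DMSO, 4.60, 5.67 and 5.23 at 24 h, and 19.4, 18.8 and 20.8 at 72 h. The 3 groups did not overlap, although the lowest DMSO library, replicate 1, lay close to the 72 h libraries. The DMSO mean was 39.2 ± 13.8 CPM, the 24 h mean 5.17 ± 0.539 and the 72 h mean 19.6 ± 1.02 (SD, n = 3). The coefficient of variation was 35.3% in DMSO, where counting alone would give 3.58%. At 24 h it was 10.4% and counting would give 9.48%, and at 72 h the values were 5.19% and 5.12%. The EDN1 libraries of each treated group thus differed by little more than counting error, and those of DMSO by far more.

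**Figure D1:**
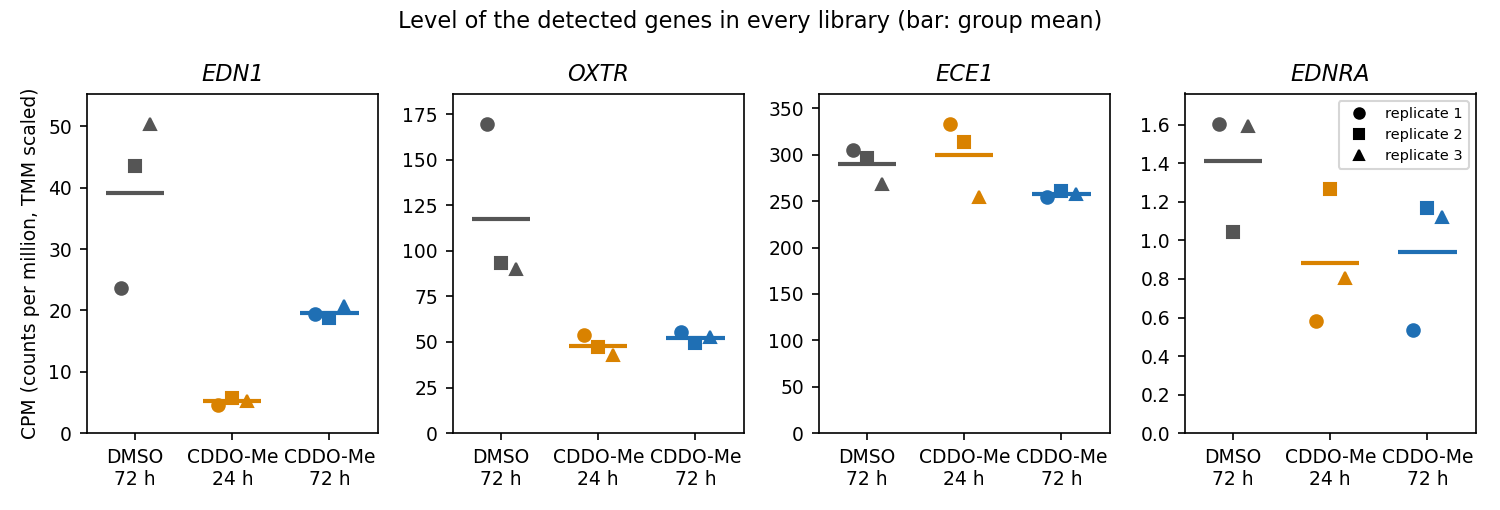
Level of the 4 detected genes in every library, as CPM on a linear axis that starts at 0 and is scaled to each gene; points are single libraries in the DMSO, 24 h and 72 h groups and bars are means of 3. EDN1 runs from 23.7 to 50.3 in DMSO, 4.60 to 5.67 at 24 h and 18.8 to 20.8 at 72 h, and OXTR has 1 high DMSO library at 169.3.

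OXTR (ENSG00000180914, GRCh38 chr3:8750408-8769628, minus strand, 4514 exon bases) was low at both treated times. Its counts were 3276, 1787 and 1856 in DMSO, 928, 928 and 1169 at 24 h, and 1142, 932 and 983 at 72 h. The CPM were 169.3, 93.1 and 89.8 in DMSO, 54.0, 47.0 and 42.7 at 24 h, and 55.3, 49.5 and 52.5 at 72 h. All 6 treated libraries lay below all DMSO libraries, and the ranges of the treated groups overlapped each other. The means were 117.4 ± 45.0, 47.9 ± 5.71 and 52.4 ± 2.94 CPM (SD, n = 3). DMSO replicate 1 was the highest library for OXTR and the lowest DMSO library for EDN1, so the DMSO spread of these genes ran in opposite directions. The coefficient of variation of OXTR was 38.3% in DMSO, 11.9% at 24 h and 5.60% at 72 h, where counting would give 2.08%, 3.15% and 3.13%. CAV3, on the opposite strand, lies over part of the OXTR gene but shares 0 exon bases with it.

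ECE1 (ENSG00000117298, GRCh38 chr1:21217247-21345504, minus strand, 7265 exon bases), the converting enzyme gene, was the most abundant of the 6. The CPM were 305.0, 296.7 and 268.7 in DMSO, 332.8, 313.9 and 254.1 at 24 h, and 254.2, 261.0 and 257.5 at 72 h. The 24 h libraries spanned the whole range of the others, with replicate 3 at the level of the 72 h libraries. Means were 290.1 ± 19.0, 300.3 ± 41.1 and 257.6 ± 3.42 CPM (SD, n = 3). ECE2 (ENSG00000145194, GRCh38 chr3:184276011-184293031, plus strand), the related neuroendocrine enzyme, was listed at 0 in all 9 libraries. It shares 2965 of its 4729 exon bases with the readthrough gene EEF1AKMT4-ECE2, which was also listed at 0. How reads matching both genes were counted is not given in the sources used here, so these entries set no limit on ECE2 RNA.

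Among the endothelin receptors, EDNRA (ENSG00000151617, GRCh38 chr4:147480917-147544954, plus strand, 4238 exon bases) was rare and EDNRB was not detected. EDNRA, the receptor that constricts smooth muscle, had 31, 20 and 33 counts in DMSO, 10, 25 and 22 at 24 h, and 11, 22 and 21 at 72 h. The CPM were 1.60, 1.04 and 1.60 in DMSO, 0.582, 1.27 and 0.804 at 24 h, and 0.533, 1.17 and 1.12 at 72 h. Replicate 1 was the lowest library in both treated groups, and the 3 groups overlapped. Counting alone would give coefficients of variation of 18.9 to 23.6%, against 22.8%, 39.5% and 37.6% measured in DMSO, at 24 h and at 72 h. EDNRB (ENSG00000136160, GRCh38 chr13:77895481-77975529, minus strand), the receptor known for nitric oxide release and clearance of endothelin, had 0 counts in all 9 libraries. A count of 0 allows up to 0.107 to 0.178 CPM, taking 3 counts of each library's total, and that limit covers counting error only.

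Per kilobase of exon, which allows genes to be compared, ECE1 was highest, then OXTR, EDN1 and EDNRA. ECE1 stood at 39.9 ± 2.62 CPM per kilobase in DMSO, 41.3 ± 5.66 at 24 h and 35.5 ± 0.471 at 72 h (SD, n = 3). The same quantity for OXTR was 26.0 ± 9.97, 10.6 ± 1.26 and 11.6 ± 0.651, and for EDN1 19.3 ± 6.80, 2.54 ± 0.265 and 9.66 ± 0.501. EDNRA was at 0.334 ± 0.0760, 0.209 ± 0.0824 and 0.222 ± 0.0835. In DMSO the libraries of OXTR (19.9 to 37.5) and EDN1 (11.7 to 24.7) overlapped, so their order there did not exceed the spread. At 24 h and at 72 h OXTR lay above EDN1 in all libraries. Among the 14965 tested genes, the mean level per kilobase of EDN1 stood at percentile 83.0 in DMSO, 39.3 at 24 h and 68.3 at 72 h. OXTR went from percentile 87.4 to 70.4 and 72.3, while ECE1 was between 91.3 and 93.0 and EDNRA between 6.03 and 11.2.

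**Figure D2:**
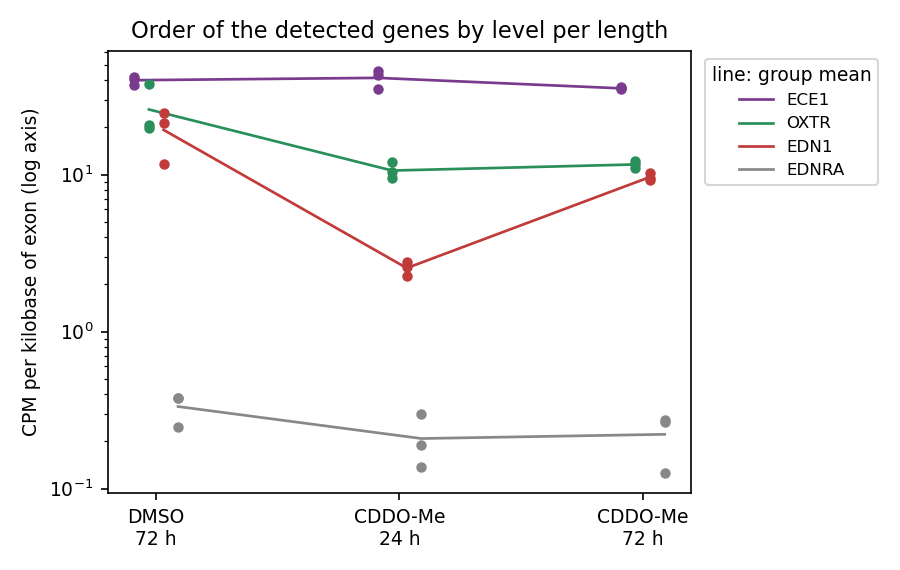
CPM per kilobase of exon on a log axis for the 4 detected genes, with points for single libraries and lines through the means of 3 in DMSO, at 24 h and at 72 h. ECE1 stays at the top between 35.5 and 41.3, and the means of OXTR and EDN1, 26.0 and 19.3 in DMSO, separate to 10.6 and 2.54 at 24 h.

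Within 41 receptors of vasoactive and contractile ligands, OXTR had the second highest mean level per kilobase in DMSO. F2R, the main thrombin receptor, was first at 31.4, and its libraries (31.0 to 31.7) lay inside the range of OXTR. The third, ADORA2B, an adenosine receptor (16.0 to 21.2), overlapped OXTR as well, whose DMSO replicate 1 stood at 37.5 and the others at 20.6 and 19.9. At 24 h and at 72 h OXTR ranked 5 of 41, and its libraries overlapped those of AGTR1, F2RL2 and S1PR3 at both times. EDNRA ranked 24, 26 and 28 in DMSO, at 24 h and at 72 h.

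The first comparison asks how treated cells at 24 h differed from vehicle cells, and it is the one by which EDN1 and OXTR were chosen, so its values are a description. Against DMSO, EDN1 had a log2 fold change of −2.92 ± 0.24 (SE), a level 7.57-fold lower and the lowest log2 fold change of all 14965 tested genes. OXTR was at −1.29 ± 0.23, 2.45-fold lower, position 43 from the lowest. ECE1 was at 0.05 ± 0.09 and EDNRA at −0.67 ± 0.39. The libraries of EDN1 and OXTR lay below all DMSO libraries, as for 6.74% of tested genes, and nothing is read from that share since the rule used the contrast. Leaving out DMSO replicate 1 moved OXTR to −0.94, and leaving out each library in turn moved EDN1 between −3.18 and −2.70. In bulk RNA, fewer cells of a type and less RNA per cell cannot be told apart.

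After 72 h, EDN1 and OXTR were lower than in DMSO, ECE1 and EDNRA did not pass, and EDNRB and ECE2 had no counts to test. Of the 4 tested genes, 2 passed an adjusted p of 0.05 in the lower direction, where 3.13% of all tested genes did so (edgeR's quasi-likelihood test, Benjamini-Hochberg adjustment over 14965 genes). EDN1 fell by 0.998 ± 0.216 on the log2 scale (1.997-fold lower, adjusted p 0.0185), and OXTR fell by 1.16 ± 0.23 (2.24-fold lower, adjusted p 0.0199). ECE1 had a log2 fold change of −0.17 ± 0.09 (95% interval −0.37 to 0.03, adjusted p 0.355), and EDNRA of −0.59 ± 0.40 (−1.44 to 0.25, adjusted p 0.467). The libraries of EDN1, OXTR and ECE1 lay wholly below those of DMSO, a separation that 15.2% of tested genes showed. This comparison shares its DMSO libraries with the one that chose EDN1 and OXTR, so it is not independent of that choice.

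Both 72 h calls depended on which libraries were kept. The EDN1 call ended without DMSO replicate 2 (adjusted p 0.0731) or without 72 h replicate 1, 2 or 3 (0.0861, 0.0883 and 0.0684). The OXTR call ended without 72 h replicate 1, 2 or 3 (adjusted p 0.0752, 0.0921 and 0.0868). Without DMSO replicate 1 OXTR was at −0.80 with an adjusted p of 0.000385. Without both libraries that stood apart, CDDO-Me 24 h replicate 3 and DMSO replicate 1, EDN1 was at −1.26 (adjusted p 1.26e-11) and OXTR at −0.80 (8.83e-10). These libraries were picked for standing apart in the same data, and many more of all tested genes were called without them. DMSO replicate 1 was also the outermost DMSO library of EDN1 and of OXTR. The p-values of fits without it are thus a description and not a test. The direction of both genes was lower in every one of the fits named here.

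**Figure D3:**
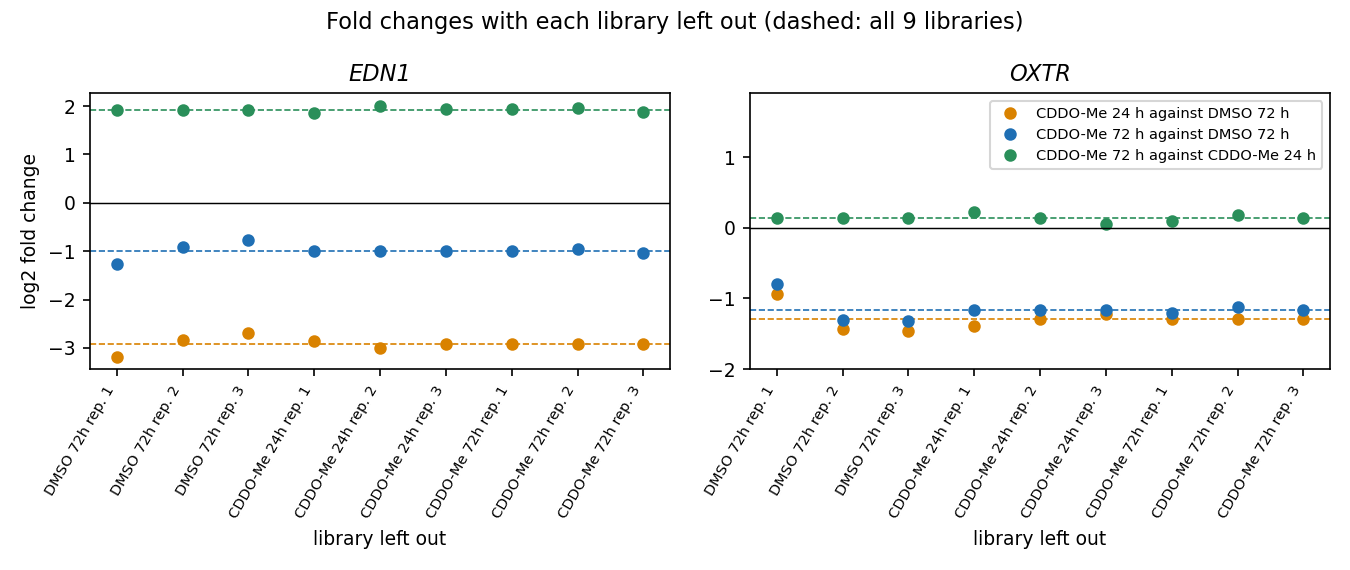
Log2 fold changes of EDN1 and OXTR with each of the 9 libraries left out in turn, for the 3 comparisons, with dashed lines at the values from all 9 libraries. EDN1 stays between −3.18 and −2.70 for 24 h against DMSO, and OXTR moves to −0.94 and −0.80 at the treated times when DMSO replicate 1 is left out.

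EDN1 was higher at 72 h of treatment than at 24 h, and no other member passed in this comparison. EDN1 was 3.79-fold higher at 72 h (log2 1.92 ± 0.24, 95% interval 1.39 to 2.45, edgeR adjusted p 0.00319), the fifth highest log2 fold change of all tested genes. This was 1 of 4 tested members called higher, where 0.448% of all tested genes were. The EDN1 libraries of 72 h lay above those of 24 h, as for 10.8% of tested genes, and the call held without any 1 of the 9 libraries (adjusted p 3.04e-06 to 0.0409). OXTR was at 0.13 ± 0.23 (−0.39 to 0.66, adjusted p 0.854). ECE1 was at −0.22 ± 0.09 (−0.42 to −0.02, adjusted p 0.332), and it passed, at −0.33, without 24 h replicate 3 (adjusted p 0.00435). EDNRA was at 0.08 ± 0.41 (−0.80 to 0.96, adjusted p 0.958), with between 10 and 25 counts in each treated library. The 24 h libraries, in which EDN1 was chosen for being low, stand on one side of this comparison too. That choice favours a higher value at 72 h. The p-values of EDN1, its share and its fits without 1 library are thus a description and not a test.

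**Figure D4:**
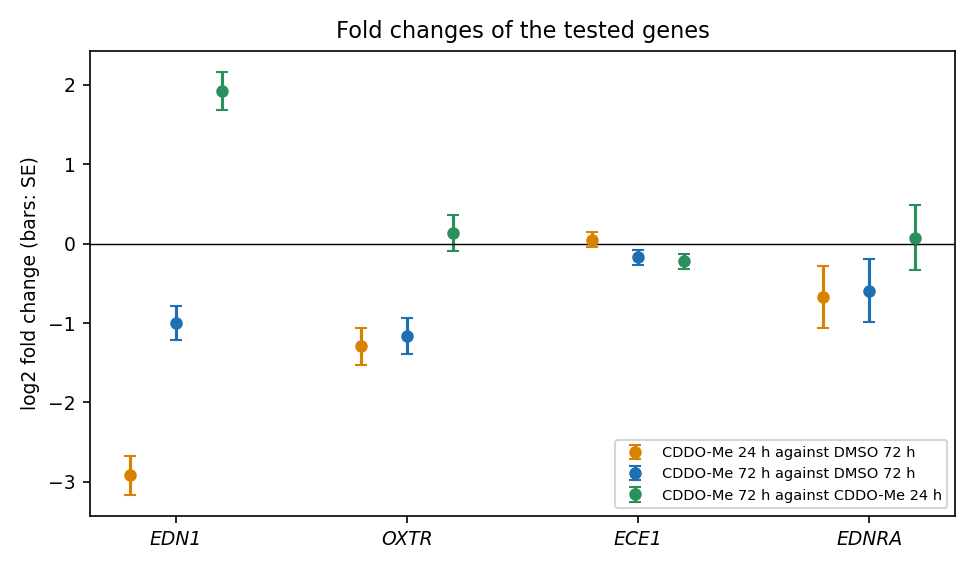
Log2 fold changes of the 4 tested genes in the 3 comparisons, with bars of 1 SE. EDN1 is at −2.92, −0.998 and 1.92, OXTR at −1.29, −1.16 and 0.13, and ECE1 lies between −0.22 and 0.05.

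Some markers of other cell types also differed between the groups. The 9 endothelial markers summed to 14.5 to 17.2 CPM in DMSO, 11.9 to 14.9 at 24 h and 9.02 to 9.77 at 72 h. Of these, 6 were tested, CDH5 had at most 1 count in any library, and TEK, the angiopoietin receptor gene, was the 1 that fell at 72 h. TEK alone held most of each sum, with means of 12.5, 9.51 and 7.01 CPM in DMSO, at 24 h and at 72 h. No other endothelial marker was called in any comparison. The 7 smooth muscle markers summed to 567.8 to 856.9 CPM in DMSO, 421.8 to 658.7 at 24 h and 483.9 to 506.0 at 72 h. At 24 h 2 of them fell, ACTA2 and MYOCD, and the same genes were lower than DMSO at 72 h, where CNN1 was higher (edgeR adjusted p 0.0499). The 5 epithelial markers summed to 225.0 to 268.9 CPM in DMSO, 154.0 to 221.4 at 24 h and 128.0 to 136.9 at 72 h. Of their 4 tested genes, KRT19 was lower than DMSO at 24 h, and KRT18 and KRT19 were lower at 72 h than in DMSO and than at 24 h. Among 11 fibroblast markers PDGFRA and FN1 were lower at 72 h than in DMSO, and FN1 was lower than at 24 h. The median log2 level of the nuclear-retained and histone RNAs, over the DMSO mean, was 0.39, −0.05 and −0.16 in DMSO, 0.36, 0.39 and −0.61 at 24 h, and 0.00, −0.55 and −0.54 at 72 h. The part of these values in the EDN1 and OXTR results was not tested.

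The genes around the members were followed in 7 lists with 187 genes in the table, of which 136 were tested. At 24 h 1 of them was higher and 7 were lower than in DMSO, 5.88% of those tested, where 2.15% of all tested genes were called. At 72 h 5 were higher and 9 lower, 10.3% against 6.02%, and between the treated times 3 were higher and 1 lower, 2.94% against 1.02%. The lists were chosen with earlier results of these data known, so these shares are a description and not a test of the lists. Split by direction, the shares of all tested genes called higher and lower were 0.969% and 1.18% at 24 h, 2.89% and 3.13% at 72 h, and 0.448% and 0.568% between the treated times. Over all tested genes the median log2 fold change lay within 0.01 of 0 in each comparison.

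Other ligands of the members were scarce. EDN2 had 0 to 2 counts per library, EDN3 and AVP had 0, and OXT, the gene of the OXTR ligand oxytocin, had 0 to 7. Of 9 tested genes of related peptides and their processing none passed at 24 h (1 had an unadjusted p under 0.05 in edgeR, and DESeq2 and voom called 0) and 1 did at 72 h, where the median log2 fold change was −0.04. This was 11.1% of those tested, where 6.02% of all tested genes were called at 72 h. The gene called was FURIN, a protease that cuts precursors such as that of endothelin, at 85.0 ± 21.8, 84.0 ± 4.99 and 59.6 ± 3.61 CPM (SD, n = 3). Its log2 fold change at 72 h was −0.51 ± 0.14 (edgeR adjusted p 0.04997), and the call ended in 8 of 9 fits with 1 library left out, at up to 0.188.

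Of 27 tested receptors for other vasoactive and contractile ligands, none passed at 24 h in edgeR, DESeq2 or voom (5 had an unadjusted p under 0.05 in edgeR). At 72 h 1 was called, in the lower direction. That is 3.7% of those tested, below the 6.02% of all tested genes called in either direction. The median log2 fold changes at 24 h and at 72 h were 0.08 and 0.14. BDKRB1, a bradykinin receptor, was at 4.82 ± 1.97 CPM in DMSO and 1.91 ± 0.341 at 72 h (log2 −1.33 ± 0.32, edgeR adjusted p 0.0235). Between the treated times F2RL1, a protease-activated receptor, was lower at 72 h (6.97 ± 0.910 to 3.83 ± 0.331 CPM, log2 −0.86 ± 0.19, adjusted p 0.0438). The BDKRB1 call ended in 4 of 9 and the F2RL1 call in 7 of 9 fits with 1 library left out, at adjusted p of up to 0.118 and 0.251.

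Downstream of the receptors, G proteins, phospholipases and protein kinases C had 20 tested genes, of which none passed at 24 h in edgeR (2 had an unadjusted p under 0.05, DESeq2 called 1 and voom 0) and 1 rose at 72 h. That is 5.0% of those tested, below the 6.02% of all tested genes called at 72 h. The gene that rose was PRKCD, a protein kinase C, from 13.5 ± 0.983 to 18.9 ± 0.739 CPM (log2 0.49 ± 0.12, edgeR adjusted p 0.0274), a call that ended in 5 of 9 fits with 1 library left out. Among 17 tested receptor kinases, arrestins and RGS proteins, which switch such signals off, RGS4 fell at both times. RGS4, which speeds the turning off of Gq and Gi proteins, stood at 281.2 ± 16.6, 152.4 ± 27.4 and 116.4 ± 4.58 CPM. Its log2 fold changes against DMSO were −0.89 ± 0.11 at 24 h (adjusted p 0.000465) and −1.27 ± 0.11 at 72 h (9.62e-06), and both calls held without any 1 library. At 72 h RGS5 was lower (log2 −0.76 ± 0.21, adjusted p 0.0425) and RGS20 higher (1.21 ± 0.25, adjusted p 0.0141), calls that ended in 7 and 5 of 9 such fits.

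Further along the calcium pathway, RCAN1, a calcineurin inhibitor that calcineurin signalling itself induces, followed EDN1 in being lower at 24 h and higher again at 72 h. It stood at 152.0 ± 7.98, 100.3 ± 21.4 and 157.6 ± 7.11 CPM, with log2 fold changes of −0.60 ± 0.12 for 24 h against DMSO (edgeR adjusted p 0.0144) and 0.65 ± 0.12 for 72 h against 24 h (0.0159). These calls ended in 4 and 5 of 9 fits with 1 library left out, at up to 0.0765 and 0.120. MYL9, a light chain of smooth muscle myosin, was lower at 24 h (log2 −0.48 ± 0.10, adjusted p 0.0155) and at 72 h (−0.38, adjusted p 0.0293), calls that ended in 2 and 5 of 9 such fits. MYLK, the kinase of that light chain, was lower at 72 h (208.7 ± 24.4 to 131.8 ± 2.59 CPM, log2 −0.66 ± 0.10, adjusted p 0.000976).

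Transcription factors known from work on the EDN1 promoter had 25 tested genes, with a median log2 fold change of −0.16 at 24 h and −0.12 at 72 h. At 24 h 4 fell, FOSL2, GATA6, JUN and SMAD3, where 1.18% of all tested genes were called lower. The list was chosen with earlier results known, so this count is a description. JUN, a subunit of AP-1, stood at 348.8 ± 61.6 CPM in DMSO, 207.5 ± 20.6 at 24 h and 365.8 ± 7.09 at 72 h. Its log2 fold change was −0.75 ± 0.11 for 24 h against DMSO (edgeR adjusted p 0.00263), 0.07 for 72 h against DMSO (0.809) and 0.82 ± 0.11 for 72 h against 24 h (0.00319). GATA6, a GATA factor of the heart, was at 48.3 ± 2.52, 32.2 ± 1.43 and 29.4 ± 0.308 CPM, lower at both times (log2 −0.59 ± 0.09 and −0.71 ± 0.09, adjusted p 0.00182 and 0.000142). SMAD3, which carries TGF-beta signals, was at 167.0 ± 18.7, 111.2 ± 16.3 and 85.4 ± 3.15 CPM and was also lower at both times (−0.59 ± 0.11 and −0.97 ± 0.11, adjusted p 0.00845 and 7.23e-05). The 24 h call of SMAD3 ended without DMSO replicate 2 (adjusted p 0.0640). FOSL2, another AP-1 subunit, was at 276.2 ± 21.2 CPM in DMSO and 214.1 ± 8.78 at 24 h (−0.37 ± 0.08, adjusted p 0.0188), and its call ended without DMSO replicate 2 (0.112) or 24 h replicate 2 (0.0809). KLF2, known as a repressor of EDN1 in endothelium, was at 25.2 ± 3.29, 22.1 ± 6.13 and 43.5 ± 1.70 CPM and rose at 72 h against DMSO (0.79 ± 0.16, adjusted p 0.00909) and against 24 h (0.97 ± 0.16, adjusted p 0.0101). The call against 24 h ended in 4 of 9 fits with 1 library left out, at up to 0.0725. Without 24 h replicate 3, KLF2 was called lower at 24 h than in DMSO (edgeR adjusted p 0.0194). The 24 h replicates 1, 2 and 3 of KLF2 stood at 17.9, 19.3 and 29.1 CPM, against 21.8 to 28.4 in DMSO. The EDN1 promoter sequence printed above holds a match to a GATA motif and to an AP-1 variant, and whether these factors bound there was not measured.

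The other vasoactive mediators had 10 tested genes. PTGS1, cyclooxygenase 1, rose from 1.06 ± 0.427 CPM to 3.04 ± 0.324 at 24 h and 3.10 ± 0.167 at 72 h (log2 1.51 ± 0.29 and 1.54 ± 0.29, edgeR adjusted p 0.0132 and 0.00545). TBXAS1, thromboxane synthase, rose at 72 h (1.20 ± 0.255 to 3.02 ± 0.469 CPM, log2 1.33 ± 0.30, adjusted p 0.0151). ADM, the gene of the vasodilator adrenomedullin, was lower at 72 h (188.5 ± 8.92 to 130.0 ± 3.03 CPM, log2 −0.54 ± 0.13, adjusted p 0.0265). The 24 h call of PTGS1 ended without 24 h replicate 2 (adjusted p 0.0502), and the 72 h calls of TBXAS1 and ADM ended in 3 and 6 of 9 fits with 1 library left out.

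The genes most like EDN1 over the 9 libraries, by Pearson's r of log2 CPM among 9776 genes of average log2 CPM of at least 3, were MB21D2 (0.986), SGK1 (0.984), JPT2 (0.968) and DKK1 (0.959). SGK1, a kinase gene, stood at 56.0 ± 9.19, 27.1 ± 2.25 and 42.5 ± 0.894 CPM in DMSO, at 24 h and at 72 h, and DKK1, a Wnt inhibitor gene, at 489.5 ± 19.1, 284.3 ± 21.9 and 380.8 ± 16.3. An r takes no account of the size of a change. JPT2 was at log2 −0.24 ± 0.07 for 24 h against DMSO (edgeR adjusted p 0.104) and passed in no comparison. The genes most like OXTR were CDH11 (0.978), MYADM (0.953), FGD4 (0.952) and DUSP10 (0.950). CDH11, a mesenchymal cadherin gene, stood at 28.7 ± 6.67, 15.01 ± 0.468 and 15.5 ± 0.577 CPM, and MYADM at 158.9 ± 30.3, 86.0 ± 5.45 and 77.4 ± 4.37. EDN1 and OXTR had an r of 0.624 with each other. These values describe the same 9 libraries in 3 groups, whose differences they share.

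**Figure D5:**
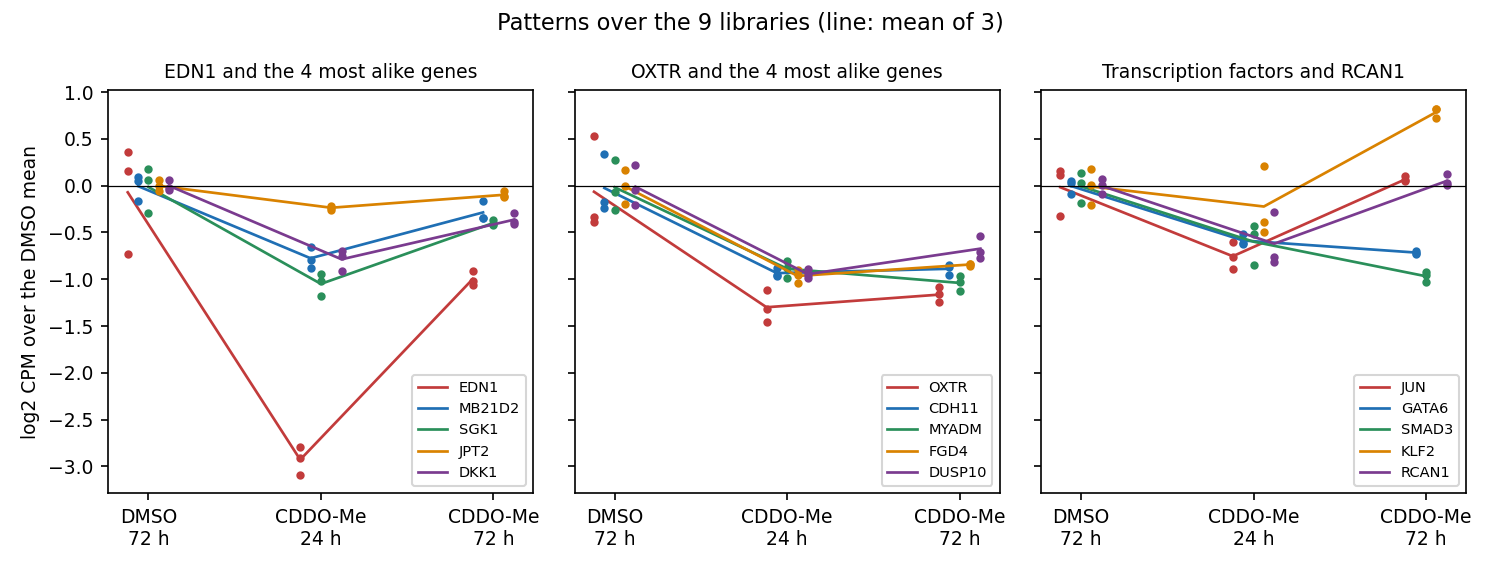
Log2 CPM over the DMSO mean in each library for EDN1 and OXTR and the genes most like each, with points for libraries and lines through means of 3. A further panel shows JUN, GATA6, SMAD3, KLF2 and RCAN1, which were not picked for likeness. EDN1 and the genes beside it are lowest at 24 h and higher at 72 h, while OXTR and the genes beside it are low at both treated times. The genes beside EDN1 and OXTR were picked by r, so their likeness follows from that choice.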

How the data were processed

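Polyadenylated RNA of 9 samples of AC16 cells was made into unstranded libraries with the TruSeq RNA v2 kit, per the labels. The authors deposited a table of unnormalized read counts for Ensembl genes, in whole numbers over all exons, with start, end and exon length (GRCh38). Per the submitters' processing notes, STAR and SAMtools were used, as were Subread and featureCounts. For their versions, the annotation release, the strand setting and the handling of reads that match several genes, the entry is: not given in the sources used here. Without strand, reads of a gene and its antisense partner cannot be told apart; ECE1-AS1 shares 240 exon bases with ECE1 (1 count in all), and OBI1-AS1 shares 80 with EDNRB (2 counts). Some titles and the design text write CDDO where the treatment label gives CDDO-Me, which was followed.

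Names were found for 57717 of 58299 gene IDs, and 57393 had the same start and end in GENCODE 29, which ECE1 did not. Counts were fitted with edgeR 4.0.16 in R 4.3.3 (robust quasi-likelihood, trimmed mean of M values, filterByExpr), with 1 mean for each of the 3 groups over all 9 libraries, which left 6 residual degrees of freedom. The 14965 tested genes held 99.87 to 99.9% of counts, at a common biological coefficient of variation of 11.5%. Benjamini-Hochberg adjustment ran over all tested genes, with a threshold of 0.05. SE was computed by dividing the log2 fold change by the root of the F statistic. The test was tried on simulated data. No 2 replicates held the same counts within sampling noise (the lowest chi-square per degree of freedom was 2.09).

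The members and the 7 lists were chosen with earlier results of these data known. Named are the members, up to 3 genes per list and comparison with the smallest adjusted p past the threshold (otherwise the most abundant), the NRF2 check genes, and the 4 genes most like EDN1 and OXTR by Pearson's r. Some of these are given only within counts, and the count of 1 of the 7 lists by itself is not reported here. FOSL2, NPPB, NPPA, the scarce ligands, the markers and the neighbours in the receptor order were named after their values were seen. Alternatives were other library size factors, other filters, DESeq2 1.42.0, limma 3.58.1 (voom, with and without sample weights), a replicate block, fits of only 2 groups, each library left out, and both libraries that stood apart left out.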

Additional observations from a re-analysis of the deposited data

Results flagged for a closer look

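Among the members and the genes of the 7 lists, the difference from DMSO at 72 h was not the same as that at 24 h for 5 genes. Of all tested genes, 152 of 14965 (1.02%) were called between 72 h and 24 h, with NQO1, SGK1 and DKK1 among them. The test is the comparison of 72 h with 24 h, since both differences share the DMSO libraries, and in it duration of treatment and culture time cannot be told apart. The log2 difference at 72 h minus that at 24 h was 1.92 for EDN1, 0.97 for KLF2, 0.82 for JUN, 0.65 for RCAN1 and -0.86 for F2RL1 (edgeR adjusted p 0.00319, 0.0101, 0.00319, 0.0159 and 0.0438). EDN1 was chosen for being low in the 24 h libraries used here, so its value and p-values are a description and not a test. The values of EDN1 and JUN passed without any 1 library, and those of KLF2, RCAN1 and F2RL1 ended in 4, 5 and 7 of 9 fits with 1 library left out. The groups hold 3 libraries each, too few for the check of single libraries that lie far from their group.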

How the results depend on the processing

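EDN1, OXTR and ECE1 against DMSO at 72 h, and EDN1 in every comparison, kept their direction under all 19 alternatives. In fits of only the 2 groups compared, the 72 h values of EDN1 (-1.001, adjusted p 0.0675) and OXTR (-1.17, adjusted p 0.0554) did not pass. With voom sample weights ECE1 passed at 72 h against DMSO (-0.17, adjusted p 0.0476) and against 24 h (-0.30, adjusted p 0.000899). Without both libraries that stood apart ECE1 passed against 24 h (-0.33, adjusted p 8.07e-05), and OXTR at 24 h against DMSO moved to -0.86. EDNRA for 72 h against 24 h changed sign with sample weights (-0.082) and without both libraries (-0.0105); with 1 library left out it ran from -0.13 to 0.41. The libraries that stood apart were picked from these same data, so the p-value without them is a description. The cause of these changes was not tested.

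With each library left out, EDN1 against DMSO at 72 h ran from -1.26 to -0.78, OXTR from -1.32 to -0.80, and ECE1 for 72 h against 24 h from -0.33 to -0.14. The count of all genes called was 321 at 24 h against DMSO, 901 at 72 h and 152 between the treated times. Leaving out each library gave 134 to 1657, 401 to 1972 and 32 to 1843, with the highest of each without 24 h replicate 3; without both libraries the counts were 3464, 2724 and 3471, and with sample weights 1656, 2593 and 2918. No filter gave 662 and 507 and DESeq2 546 and 388 in the first and last comparison, and fits of 2 groups gave 100 and 1776 against DMSO. For the 7 lists the counts were 8, 14 and 4, with 4 to 25, 6 to 34 and 1 to 31 when each library was left out, 48, 50 and 45 without both, 25, 47 and 40 with sample weights, and 15, 22 and 14 with no filter. DESeq2 gave 23 and 9 in the comparisons of 72 h, and fits of 2 groups 3 and 35 against DMSO.

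Deviations of libraries with the same replicate number correlated at 0.00128 to 0.175, and those with different numbers at -0.271 to 0.112. The same-number values were not over 0.1 in every pair, so the numbers were not taken to pair libraries. This cut does not exclude a pairing. With a replicate block EDN1 was at -2.90, -0.94 and 1.95 and OXTR at -1.25, -1.11 and 0.14 in the 3 comparisons, and 358, 963 and 219 genes were called. Depth limits EDNRA, with 10 to 33 counts per library.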

Other observations

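NPPB, the gene of the natriuretic peptide BNP and a classic readout of endothelin signalling in heart muscle cells, was below the filter on low counts and was picked out after its values were seen. It had 18, 9 and 7 counts in the DMSO replicates, 1, 0 and 3 at 24 h, and 1, 0 and 0 at 72 h. Every treated library held fewer counts than every DMSO library. Of the tested genes, which leave out NPPB, 6.74% at 24 h and 15.2% at 72 h lay wholly below DMSO in CPM. With no filter, edgeR gave an adjusted p of 0.0403 at 24 h and 0.00219 at 72 h against DMSO. NPPB was picked by these same values, so they are a description and not a test. Any link to EDN1 was not tested. NPPA, the gene of the atrial peptide ANP, had 14, 7 and 8 counts in DMSO, 10, 7 and 6 at 24 h, and 2, 4 and 5 at 72 h, and did not pass in that fit at 24 h (adjusted p 0.887) or at 72 h (0.479).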
